A study of Capra hircus with 29 samples.

Results

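Heat shock proteins and chaperonins were described in goat oocytes over 6 groups of samples. Members were the genes of the oocyte table whose symbol named a small heat shock protein (HSPB), an HSP70 or HSP110 (HSPA, HSPH1), an HSP90, a J-domain protein of type A, B or C (DNAJA, DNAJB, DNAJC), the mitochondrial chaperonin (HSPD1, HSPE1) or a subunit of the cytosolic chaperonin TRiC (TCP1, CCT2 to CCT8). The rule used names only and found 112 of the 21343 genes in the table, under 80 symbols.

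Oocytes of Ji'ning grey goats were sequenced from a high fertility group and a low fertility group, each divided by the size of the follicle the oocytes came from. The labels set litters above 3 kids against litters below 2, whereas the study's methods also counted litters of exactly 3 and 2 kids. High fertility gave 5 samples from large follicles (HLO), 5 from medium follicles (HMO) and 4 from small follicles (HSO), and low fertility gave 5 from large (LLO), 5 from medium (LMO) and 5 from small follicles (LSO). The labels speak of single cells, but the methods describe oocytes pooled by stage and then divided into samples of a few oocytes. The ages of the goats and the goats behind each sample were not recorded in the labels. Every p-value therefore measures spread between the samples compared, out of these 29, and not between goats. Levels are FPKM, fragments per kilobase of transcript scaled to the mapped fragments of the sample, as the authors computed them. By the methods, oocyte messenger RNA was enriched with oligo(dT) beads, which bind poly(A) tails. The part of tail length in the levels was not tested. The table used here holds no read counts, and sequence counts in the study's supplement were not used, so no counting interval is given. These are bulk values, in which fewer cells with a transcript and less RNA per cell cannot be told apart.

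Chaperones bind unfolded or partly folded proteins and keep them from clumping while they fold. J-domain proteins deliver clients to HSP70 and start its ATP cycle, HSP90 finishes many signalling proteins, small heat shock proteins hold clients without ATP, and ring-shaped chaperonins enclose a client in a chamber. A growing oocyte stores messenger RNA and protein for the early embryo, and its chaperone transcripts are part of that maternal store.

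The oocyte label was checked against markers. All 13 oocyte symbols were in the table, their summed level ran from 1598 FPKM in LLO-3 to 11069 FPKM in HSO-5 with a median of 3955 FPKM, and ZP3, a zona pellucida protein, was the most abundant. NOBOX and NLRP5 were low, at means of 0.379 and 0.303 FPKM. Of 10 granulosa symbols 8 were in the table, with sums from 0.516 to 7.18 FPKM, GJA1 highest and AMH listed at 0 in every sample. Of 7 theca and stroma symbols 5 were in the table, with sums from 2.94 to 18.9 FPKM and DCN highest. The 3 endothelial symbols summed to 0 to 1.61 FPKM with VWF highest and CDH5 at 0, and the 4 leukocyte symbols to 0 to 0.309 FPKM with CD3E highest and CD14 and CD74 at 0. Neither of the 2 erythrocyte symbols was in the table. The part of other cells in the member levels was not tested.

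Of the 112 member genes, 72 exceeded 0.5 FPKM in 4 or more samples, as did 9692 genes of the table, and 44 exceeded it in every sample. Another 13 were listed at 0 in every sample, 4 of them type A and 2 type B J-domain proteins, 3 HSP70 genes, 2 TRiC genes, 1 HSP90 gene and 1 small heat shock protein. A symbol was shared by 2 or more genes for 48 members, and which of them gave rise to the reads is uncertain, so their identifiers are given. In the GO annotation, 55 members carried unfolded protein binding, of 138 genes in the table with that term, 53 carried ATP binding, 15 response to heat, 14 endoplasmic reticulum and 13 mitochondrion. Members held 0.588% to 1.12% of the summed FPKM of a sample, with a median of 0.791%. Their summed level was lowest in LMO-2, at 2089.7 FPKM, and highest in LSO-4, at 4611 FPKM. LMO-2 stood apart in its whole library, with an FPKM sum of 222697 against 347806 to 490048 in the other 28 samples.

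The mitochondrial chaperonin held 51.5% of the FPKM of all members on average, with a mean sum of 1727 FPKM. Type C J-domain proteins followed with 15.8% and TRiC with 14.9%, then type A J-domain proteins with 5.91%, HSP90 with 4.84%, HSP70 and HSP110 with 3.95%, type B J-domain proteins with 1.77% and small heat shock proteins with 1.32%. The ratio of the highest to the lowest sample was smallest for the sum of type C J-domain proteins, 1.72, from 413 FPKM in HMO-2 to 709 FPKM in LLO-5. It was largest for HSP70 and HSP110, 8.77, from 39.6 FPKM in LLO-3 to 347 FPKM in HSO-5. On the log2 scale of FPKM + 1 the median SD over samples was 0.58 for the 72 members and 0.56 for the 9692 genes, with 0.86 for type A J-domain proteins as the highest family and 0.42 for the mitochondrial chaperonin as the lowest.

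**Figure D1:**
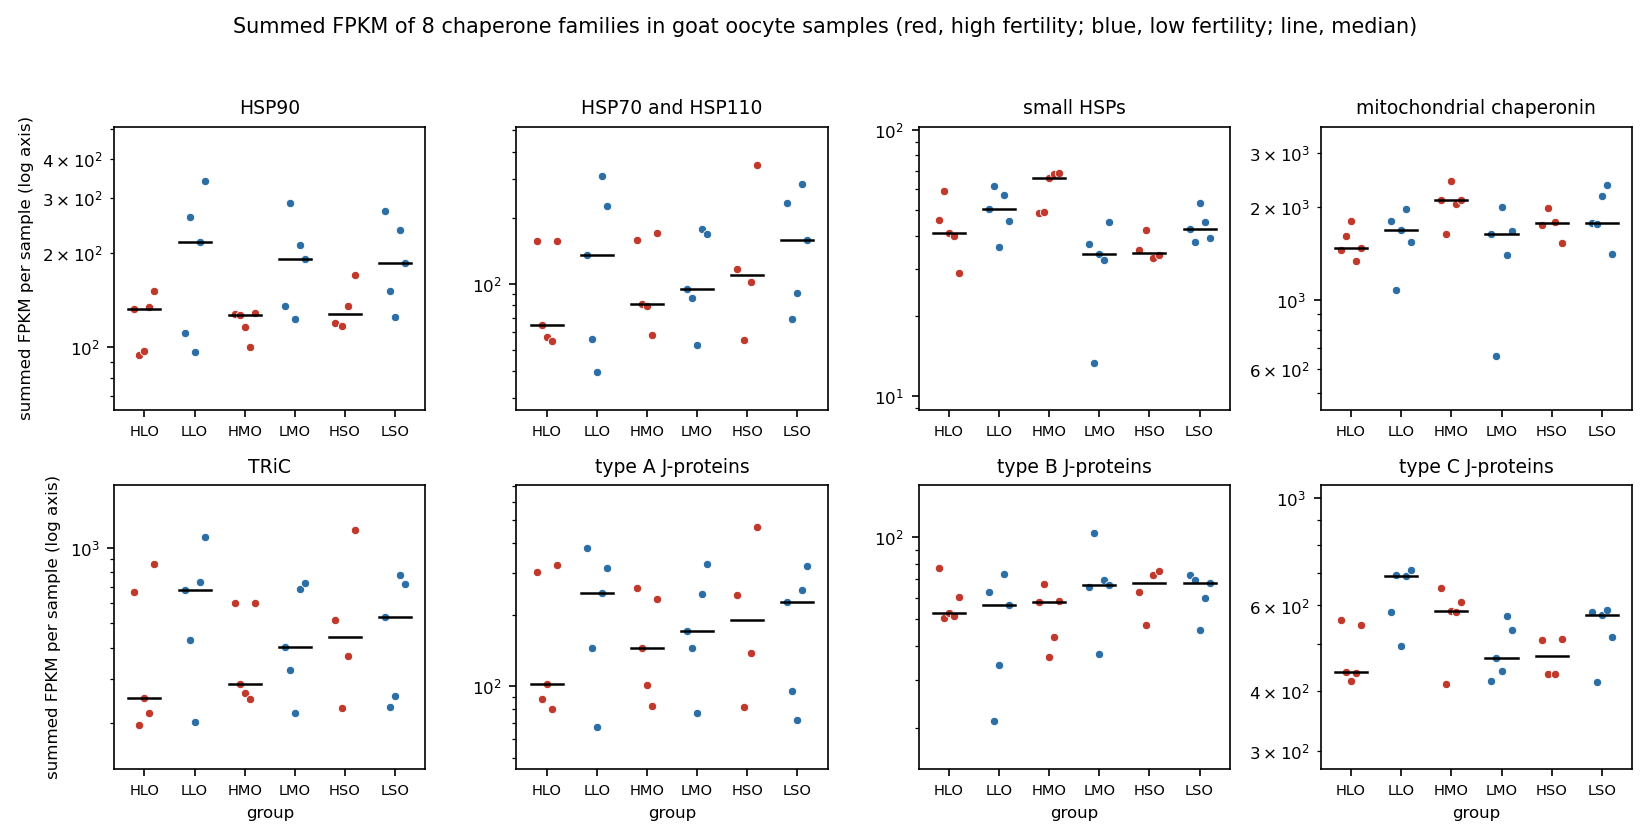
Summed FPKM per sample (log axis) of the 8 families in each group, with points for samples, lines for group medians, red for high and blue for low fertility. The sum of small heat shock proteins is lowest in LMO-2, at 13.3 FPKM, and is mostly HSPB11.

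All 4 genes of the mitochondrial chaperonin passed the 0.5 FPKM limit. HSPE1, its lid, was the most abundant member, under the identifier ENSCHIG00000009467. It was at 1150.3, 1452, 1564, 1228 and 1047 FPKM in HLO-1 to HLO-5 and at 1509, 703, 1501, 1624 and 905 FPKM in LLO-1 to LLO-5. In medium follicles the same gene was at 1711, 1358, 2222, 1743 and 1719.9 FPKM in HMO-1 to HMO-5 and at 1368, 612, 1839, 1135 and 1372 FPKM in LMO-1 to LMO-5. Small follicles gave 1443, 1777, 1528 and 1182 FPKM in HSO-1, HSO-3, HSO-4 and HSO-5 and 1564, 1657, 1961, 1995 and 1107 FPKM in LSO-1 to LSO-5. LMO-2 and LLO-2 were the lowest samples and HMO-3 the highest, and high and low fertility overlapped in all 3 follicle sizes. A second gene named HSPE1 (ENSCHIG00000026973) ranged from 34.6 FPKM in LMO-2 to 625 FPKM in LLO-5, and another (ENSCHIG00000021256) from 0 to 0.871 FPKM.

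HSPD1, which forms the barrel that HSPE1 closes, was far less abundant, with a mean of 7.89 FPKM and a range from 4.58 FPKM in LLO-3 to 17.1 FPKM in LSO-1. The ratio of the first HSPE1 gene to HSPD1 was above 1 in all 29 samples, from 42.5 in LMO-2 to 377 in HMO-3 with a median of 207. HSPD1 was among the 5 members with the smallest SD over samples among those above 1 FPKM. Protein levels were not measured.

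TRiC folds actin and tubulin in a double ring of different subunits, and 9 of the 17 genes under its names passed the 0.5 FPKM limit. CCT2 led with 209, 101, 136, 120.5 and 275 FPKM in HLO-1 to HLO-5 and 212, 328, 115, 243 and 518 FPKM in LLO-1 to LLO-5. Its values in medium follicles were 193, 127, 151, 146 and 207 FPKM in HMO-1 to HMO-5 and 185, 163, 120.4, 253 and 283 FPKM in LMO-1 to LMO-5. In small follicles CCT2 stood at 196, 124, 178 and 342 FPKM in HSO-1, HSO-3, HSO-4 and HSO-5 and at 179, 114, 148, 320.4 and 259.9 FPKM in LSO-1 to LSO-5. LLO-5 was the highest sample and HLO-2 the lowest, and the fertility groups overlapped at every follicle size.

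CCT8, another subunit of the ring, spread more widely and was among the 5 members with the largest SD. It was at 229, 30.5, 40.9, 32.5 and 378 FPKM in HLO-1 to HLO-5 and at 295, 63.03, 30.03, 237 and 451 FPKM in LLO-1 to LLO-5. HMO-1 to HMO-5 held 241, 65.3, 46.8, 42.1 and 239 FPKM and LMO-1 to LMO-5 held 97.04, 41.3, 32.8, 249 and 234 FPKM. HSO-1, HSO-3, HSO-4 and HSO-5 held 177, 38.8, 80.9 and 485 FPKM and LSO-1 to LSO-5 held 109, 33.5, 43.2, 258 and 247 FPKM. Within each group some samples were near or under 81 FPKM and others above 97 FPKM, so that the spread inside groups was wider than the distance between them.

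Of the other subunits, CCT3 ranged from 7.93 FPKM in LLO-2 to 185 FPKM in HSO-5, TCP1 from 7.09 to 60.7 FPKM and CCT7 from 3.55 to 74.5 FPKM. CCT6B, a variant of the sixth subunit, had a mean of 2.12 FPKM, and CCT6A (ENSCHIG00000015849) had a mean of 1.93 FPKM. The subunit CCT4, read under a shared symbol, was low in every sample, and the ratio of CCT2 to CCT4 ran from 44.0 in LSO-1 to 1879 in LLO-2 with a median of 238. A second gene named CCT4 had a mean of 0.232 FPKM.

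**Figure D2:**
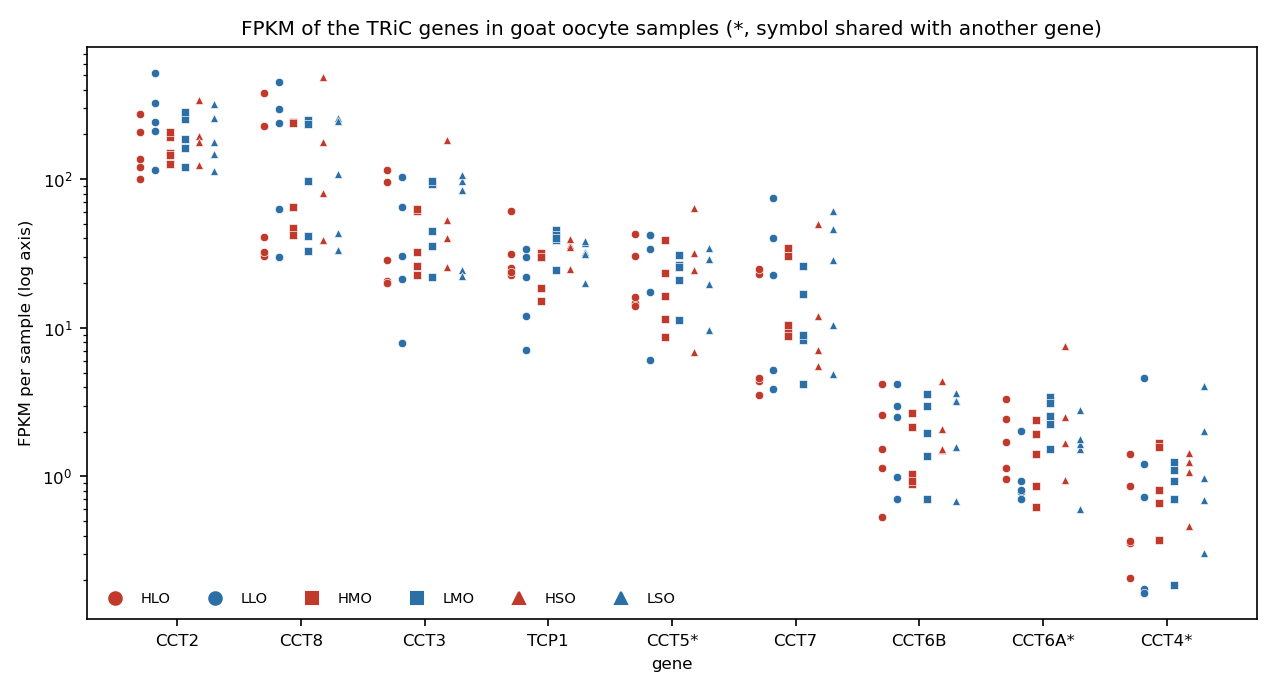
FPKM per sample (log axis) of the 9 TRiC genes that passed the 0.5 FPKM limit, with red for high and blue for low fertility and circles, squares and triangles for large, medium and small follicles. CCT2 lies between 101 and 518 FPKM, whereas CCT8 runs from 30.0 to 485 FPKM.

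Of the 4 HSP90 genes 3 passed the limit. HSP90AA1, the stress-responsive HSP90 of the cytosol, was the HSP90 with the highest mean, 81.1 FPKM. In large follicles it was at 60.2, 50.1, 55.1, 80.5 and 55.6 FPKM in HLO-1 to HLO-5 and at 46.2, 137, 49.4, 114 and 102 FPKM in LLO-1 to LLO-5. Medium follicles gave 54.1, 73.6, 63.7, 46.6 and 55.4 FPKM in HMO-1 to HMO-5 and 73.1, 162, 80.2, 102 and 91.6 FPKM in LMO-1 to LMO-5. Small follicles had 53.5, 67.4, 72.2 and 61.03 FPKM in HSO-1, HSO-3, HSO-4 and HSO-5 and 165, 91.2, 77.5, 122 and 90.5 FPKM in LSO-1 to LSO-5. Every LSO sample lay above every HSO sample, the medium groups overlapped only through LMO-1 and HMO-2, and in large follicles LLO-1 and LLO-3 lay below all HLO samples and the other 3 LLO samples above them.

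HSP90AB1 (ENSCHIG00000017807), the steadily made HSP90 of the cytosol, ranged from 30.4 FPKM in HLO-2 to 111 FPKM in LMO-2, and a second gene of that name was listed at 0 in every sample. HSP90AA1 was above HSP90AB1 in 27 of 29 samples, with a median ratio of 1.47. HSP90B1, the HSP90 of the endoplasmic reticulum, ranged from 8.88 FPKM in LLO-3 to 132 FPKM in LLO-5.

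Of the 20 HSP70 and HSP110 genes 13 passed the limit. HSPA8 (ENSCHIG00000017000), the steadily made HSP70 of the cytosol, was the most abundant, with 64.3, 11.5, 15.3, 9.69 and 59.1 FPKM in HLO-1 to HLO-5 and 57.99, 9.27, 6.42, 111 and 45 FPKM in LLO-1 to LLO-5. It was at 69.2, 20.1, 22.6, 15.4 and 69.5 FPKM in HMO-1 to HMO-5 and at 30.1, 8.82, 9.68, 49.8 and 52.3 FPKM in LMO-1 to LMO-5. HSO-1, HSO-3, HSO-4 and HSO-5 gave 46.9, 9.69, 27.8 and 214 FPKM and LSO-1 to LSO-5 gave 52.2, 10.1, 25.2, 113 and 48.8 FPKM. Each group held samples under 31 and samples above 46 FPKM for HSPA8, and HSO-5 was the highest of the 29. HSPA4L, an HSP110-type protein that frees HSP70 from its nucleotide, ranged from 7.96 FPKM in HLO-2 to 139.9 FPKM in LLO-5. HSPH1, the HSP110 of the cytosol, had 1 of the 5 smallest SDs, with a range from 1.903 to 6.69 FPKM. HSPA9, the HSP70 of mitochondria, had a mean of 8.16 FPKM and HSPA2, best known from male germ cells, a mean of 8.89 FPKM.

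Small heat shock proteins had 3 of 9 genes above the limit. HSPB11, which works in ciliary transport despite its name, held most of the family's level with a mean of 41.6 FPKM. HSPB1 (ENSCHIG00000015975), the general holding chaperone of the cytosol, ranged from 0 to 9.79 FPKM, with the highest value in LLO-2. HSPB3, a small heat shock protein best known from muscle, was low, from 0 to 4.13 FPKM. Of the other 6, HSPB7 was listed at 0 throughout and none had a mean above 0.0942 FPKM, the mean of HSPB8.

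Among type A J-domain proteins, 8 of 13 genes passed the limit. DNAJA1 (ENSCHIG00000015674), a main partner of cytosolic HSP70, was the most abundant, with a median of 144 FPKM and a range from 50.4 FPKM in LLO-3 to 394 FPKM in HSO-5. DNAJA2 (ENSCHIG00000023464), a close relative, had one of the 5 smallest SDs and ranged from 8.84 to 24.9 FPKM. Another gene named DNAJA2 (ENSCHIG00000025533) had the largest SD of all members above 1 FPKM, with 28.96 FPKM in HLO-5, 20.7 in LLO-2, 23.3 in HMO-3 and 18.8 in HSO-5. It was listed at 0 in the other 25 samples, and those 4 samples fell in 4 different groups. DNAJA4, another relative, ranged from 1.54 to 15.5 FPKM.

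Type B J-domain proteins had 9 of 15 genes above the limit and were led by DNAJB1 (ENSCHIG00000023424), a heat-inducible partner of HSP70, with a mean of 29.1 FPKM. DNAJB9 and DNAJB11, both J-domain proteins of the endoplasmic reticulum, had means of 11.3 and 7.09 FPKM. DNAJB9 went from 0.0841 FPKM in LLO-2 to 22.7 FPKM in HMO-1. DNAJB12, anchored in the membrane of the endoplasmic reticulum, had the smallest SD of the members above 1 FPKM, from 1.85 to 6.61 FPKM.

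Type C J-domain proteins were the largest family, with 23 of 30 genes above the limit. DNAJC19 (ENSCHIG00000022989), part of the motor that draws proteins into mitochondria, led with a mean of 165 FPKM, followed by DNAJC8 (ENSCHIG00000026518), a splicing-associated protein, at 87.9 FPKM and DNAJC7, which binds both HSP70 and HSP90, at 52.4 FPKM. DNAJC8 was highest in LLO-2, at 258 FPKM. DNAJC11, a protein of the mitochondrial membranes, was among the 5 members with the smallest SD, with a mean of 1.75 FPKM, and DNAJC18 was among the 5 with the largest, from 1.37 FPKM in LLO-2 to 50.2 FPKM in HMO-5.

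Many members were high in the same samples. Of the 30 members with a mean above 10 FPKM, 26 were above their own median in LMO-5, 25 in LLO-4 and 24 in HLO-1. Only 5 of the 30 were above it in HLO-3, LLO-3, LMO-3 and HSO-3, and 6 in HLO-2 and HMO-3. The same samples differed in their whole libraries, since the median log2(FPKM + 1) of all genes tested was 1.97 in LMO-5, 2.17 in LLO-4 and 2.03 in HLO-1 and was 1.43 in HLO-3, 1.26 in LLO-3, 1.30 in LMO-3 and 1.36 in HSO-3. Whether members differ in this from other genes was not tested.

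The first question was whether oocytes of high and low fertility differed in large follicles. Chaperone levels overlapped between HLO and LLO for all 60 members tested. With limma's moderated test on log2(FPKM + 1), which understates differences at low levels, 0 of the 60 members passed a Benjamini-Hochberg adjusted p under 0.05, as did 0% of the 8328 genes tested. At an unadjusted p under 0.05, 0 members were higher in high fertility, against 2.98% of all genes, and 2 were lower, against 1.16%. No member separated the groups, against 0.432% of all genes.

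DNAJB14, a J-domain protein of the endoplasmic reticulum membrane, was at 0.670, 0.0578, 0.152, 0.230 and 0.432 FPKM in HLO-1 to HLO-5 and at 1.08, 0.232, 0.620, 2.32 and 2.53 FPKM in LLO-1 to LLO-5. LLO-1, LLO-4 and LLO-5 lay above every HLO sample and the other 2 LLO samples lay among them. Its log2 difference, high minus low fertility, was -0.75 (SE 0.30, adjusted p = 0.828). The DNAJA2 gene ENSCHIG00000027193 was at 1.02, 0.328, 0.287, 0.161 and 1.17 FPKM in HLO-1 to HLO-5 and at 1.298, 1.35, 0.436, 8.63 and 2.97 FPKM in LLO-1 to LLO-5. Only LLO-3 lay among the HLO samples, and LLO-4 was the highest. Here the log2 difference was -1.02 (SE 0.44, adjusted p = 0.828), and without LLO-4 it was -0.61. Both genes passed the 0.5 FPKM limit mostly through LLO, where 4 samples exceeded it, against 1 HLO sample for DNAJB14 and 2 for DNAJA2, so these p-values are no support for a difference. The median log2 difference of the 60 members was -0.23, with 17 above 0 and 43 below, and that of all genes was -0.09. The 2 members became 0 without HLO-2, HLO-3 or LLO-5, beside 2.13%, 2.26% and 1.88% of all genes. They became 1 without HLO-4, beside 2.63%, and 6 without LLO-3, 10% of members beside 10.6% of all genes. With median-of-ratios scaling 2 members were higher and 3 lower, beside 343 and 145 of all genes.

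In medium follicles more members reached the unadjusted threshold, in both directions. These groups also differed in the share of FPKM from protein-coding genes of the mitochondrial genome, 0.0222% to 0.0894% in HMO with a median of 0.0538% and 0.0867% to 1.10% in LMO with a median of 0.342%, and its part in the differences was not tested. HSPB1, HSPB11, DNAJC15 and DNAJC19 were among those on the higher side in high fertility, and HSP90AA1, HSPH1 and DNAJB1 among those on the lower side. No member passed the adjusted threshold in limma's test, 0 of 65 against 0.0715% of the 8390 genes, which were 6 genes. At an unadjusted p under 0.05, 8 members were higher in HMO, 12.3% of those tested against 5.09% of all genes, and 6 were lower, 9.23% against 3.58%. Among the 8, HSPB1, HSPB3, HSPA6 and DNAJC12 passed the 0.5 FPKM limit mostly or only through HMO, where they were high. Among the 6, DNAJC28 passed it mostly through LMO. These counts are therefore no support for a difference of the members. The samples of HMO and LMO did not overlap for 2 members, 3.08% against 1.7% of all genes.

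HSPB1 was at 1.58, 5.01, 4.803, 2.63 and 1.35 FPKM in HMO-1 to HMO-5 and at 0.418, 1.095, 0, 0 and 1.89 FPKM in LMO-1 to LMO-5. LMO-5 lay above HMO-1 and HMO-5, and LMO-3 and LMO-4 were listed at 0. The log2 difference of HSPB1 was 1.30 (SE 0.37, adjusted p = 0.235). HSPB1 exceeded 0.5 FPKM in every HMO sample but among the LMO samples only in LMO-2 and LMO-5. It passed the limit mostly through HMO, so its p-value is no support for a difference. HSPB3 gave 3.11, 0, 4.13, 1.09 and 2.699 FPKM in HMO-1 to HMO-5 and 0.386, 0, 0, 0.407 and 0 FPKM in LMO-1 to LMO-5. All HMO samples but HMO-2, listed at 0, lay above all LMO samples. For HSPB3 the log2 difference was 1.28 (SE 0.38, adjusted p = 0.261). HSPB3 entered the test only because HMO-1, HMO-3, HMO-4 and HMO-5 exceeded 0.5 FPKM, which no LMO sample did, so it passed the limit through the group where it was high and its p-value in this pair is no support for a difference. It is 1 of the 8 members counted as higher.

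HSPB11 was at 44.1, 44.2, 56.8, 64.6 and 64.4 FPKM in HMO-1 to HMO-5 and at 36.4, 12.2, 34.1, 31.9 and 42.9 FPKM in LMO-1 to LMO-5. The groups did not overlap, and LMO-2 was the lowest of the 10 samples. HSPB11 differed by 0.87 (SE 0.37, adjusted p = 0.557) on the log2 scale. Without LMO-2 its difference was 0.57. The other 6 small heat shock genes were not tested, and the sum of the family follows HSPB11.

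DNAJC15, which regulates import at the inner mitochondrial membrane, was at 20.9, 10.5, 15.9, 24.3 and 14.6 FPKM in HMO-1 to HMO-5 and at 10.3, 8.58, 11.6, 5.91 and 5.63 FPKM in LMO-1 to LMO-5. Only LMO-3 reached into the HMO range, above HMO-2. DNAJC15 had a log2 difference of 0.95 (SE 0.33, adjusted p = 0.377). Its relative DNAJC19 was at 180.1, 143, 324, 287 and 188 FPKM in HMO-1 to HMO-5 and at 118, 84.1, 204, 117 and 104 FPKM in LMO-1 to LMO-5. LMO-3 lay above HMO-1, HMO-2 and HMO-5, and the other 4 LMO samples lay below all HMO samples. DNAJC19 had a difference of 0.83 (SE 0.36, adjusted p = 0.557).

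The HSPA8 gene ENSCHIG00000009645 was at 2.17, 1.28, 3.06, 1.68 and 2.54 FPKM in HMO-1 to HMO-5 and at 0.614, 0.511, 0.198, 1.93 and 1.296 FPKM in LMO-1 to LMO-5. LMO-4 and LMO-5 reached into the HMO range. This gene differed by 0.76 (SE 0.27, adjusted p = 0.407) on the log2 scale, whereas the abundant HSPA8 gene differed by 0.44 (SE 0.61, adjusted p = 0.845). HSPA6, a stress-induced HSP70 in humans, was at 0.633, 0.323, 0.683, 0.356 and 0.506 FPKM in HMO-1 to HMO-5 and at 0.0300, 0.0813, 0.0779, 0.503 and 0.119 FPKM in LMO-1 to LMO-5. LMO-4 alone overlapped the HMO samples, and HSPA6 differed by 0.38 (SE 0.14, adjusted p = 0.467). DNAJC12, a partner of the aromatic amino acid hydroxylases, was at 1.27, 0.218, 0.366, 0.893 and 0.760 FPKM in HMO-1 to HMO-5 and at 0.549, 0.0202, 0.0621, 0.129 and 0.171 FPKM in LMO-1 to LMO-5. LMO-1 was the only LMO sample inside the HMO range, and DNAJC12 differed by 0.50 (SE 0.19, adjusted p = 0.472).

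On the lower side, HSP90AA1 had a log2 difference of -0.74 (SE 0.32, adjusted p = 0.563) in medium follicles. HSPH1, which exchanges the nucleotide of HSP70, was at 2.400, 5.25, 2.62, 2.04 and 3.63 FPKM in HMO-1 to HMO-5 and at 5.58, 6.69, 4.87, 5.98 and 4.86 FPKM in LMO-1 to LMO-5. HMO-2 lay above LMO-3 and LMO-5, and the other 4 HMO samples below all LMO samples. HSPH1 differed by -0.70 (SE 0.27, adjusted p = 0.492). DNAJB1 was at 15.04, 41.8, 16.9, 18.8 and 22.5 FPKM in HMO-1 to HMO-5 and at 34.9, 75.2, 25.1, 38.04 and 37.3 FPKM in LMO-1 to LMO-5. HMO-2 and LMO-2 were each the highest of their group, and only HMO-2 overlapped the LMO samples. DNAJB1 differed by -0.84 (SE 0.38, adjusted p = 0.571).

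DNAJC6, an auxilin that strips clathrin from vesicles, was at 4.57, 6.61, 5.94, 8.43 and 7.84 FPKM in HMO-1 to HMO-5 and at 8.796, 11.7, 10.5, 14.6 and 9.89 FPKM in LMO-1 to LMO-5. The groups did not overlap, and DNAJC6 differed by -0.66 (SE 0.28, adjusted p = 0.539). DNAJC28 was at 0.373, 0.193, 0.501, 0.274 and 0.253 FPKM in HMO-1 to HMO-5 and at 0.495, 1.46, 0.653, 0.702 and 0.540 FPKM in LMO-1 to LMO-5. LMO-2 was the highest and only HMO-3 reached LMO-1, with a difference of -0.40 (SE 0.16, adjusted p = 0.52). Only 1 HMO sample exceeded 0.5 FPKM for DNAJC28, against 4 LMO samples, and only 1 LMO sample against 3 HMO samples for HSPA6 and DNAJC12, so these 3 genes passed the limit mostly through the group where they were high and their p-values are no support either. CCT6A was at 1.41, 2.404, 0.858, 0.625 and 1.94 FPKM in HMO-1 to HMO-5 and at 2.55, 2.25, 1.53, 3.44 and 3.11 FPKM in LMO-1 to LMO-5. HMO-2 and HMO-5 overlapped the LMO samples, and CCT6A differed by -0.57 (SE 0.26, adjusted p = 0.576).

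**Figure D3:**
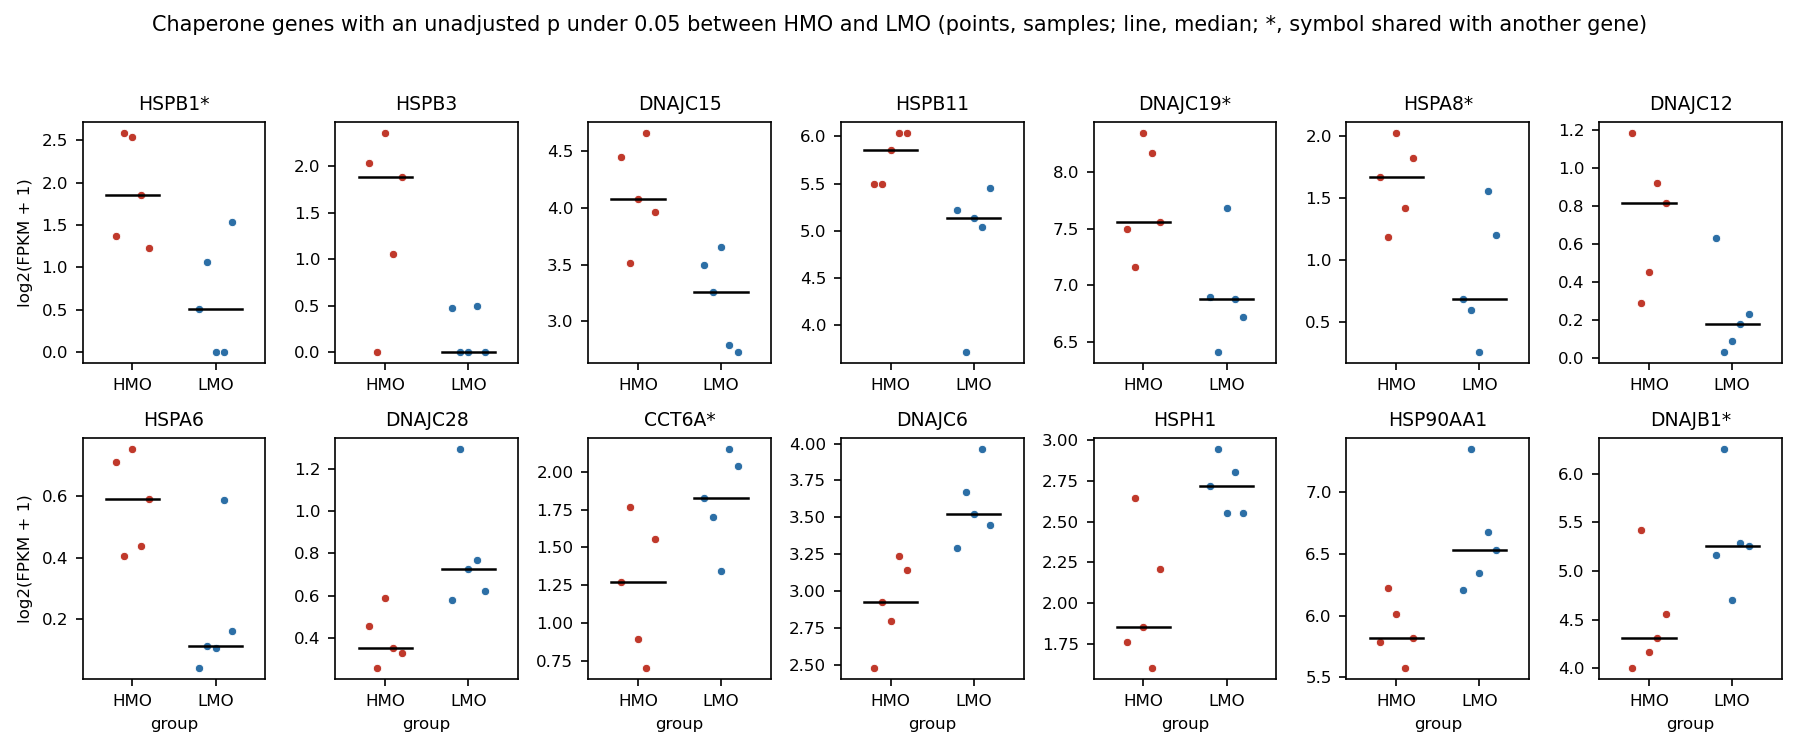
Log2(FPKM + 1) per sample in HMO (red) and LMO (blue) for the 14 members with an unadjusted p under 0.05, with a line at each group median and a separate vertical scale for each gene. Points of the 2 groups do not overlap for HSPB11 and DNAJC6.

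The median log2 difference of the 65 members in medium follicles was -0.12, with 26 above 0 and 39 below, beside -0.07 for all genes. The sign of the member median depended on single samples, since it was 0.04 without HMO-3 and 0.02 without LMO-4. The count of 14 members moved to 6 without HMO-1, 5 without HMO-3, 6 without HMO-4 and 7 without HMO-5. These were 9.68%, 7.94%, 9.68% and 11.5% of members, beside 5.13%, 5.82%, 4.82% and 6.46% of all genes. The count rose to 15 without HMO-2, 23.1% beside 12.6% of all genes, and to 19 without LMO-3, 29.2% beside 11.6%. Median-of-ratios scaling gave 10 higher and 2 lower, a change of balance shared by all genes, with 620 higher and 198 lower. With array weights, an alternative chosen after seeing the data that weights each sample by its residual spread, 13 members passed the adjusted threshold among 1011 genes. The balance of directions also changed with these weights, to 8 members higher and 28 lower at an unadjusted p under 0.05, as it did for all genes, with 662 higher and 2679 lower, together 39.8% of those tested, and a median of -0.32. Without LMO-2, the library that stood apart, 10 members had an unadjusted p under 0.05, 15.4% beside 7.6% of all genes.

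**Figure D4:**
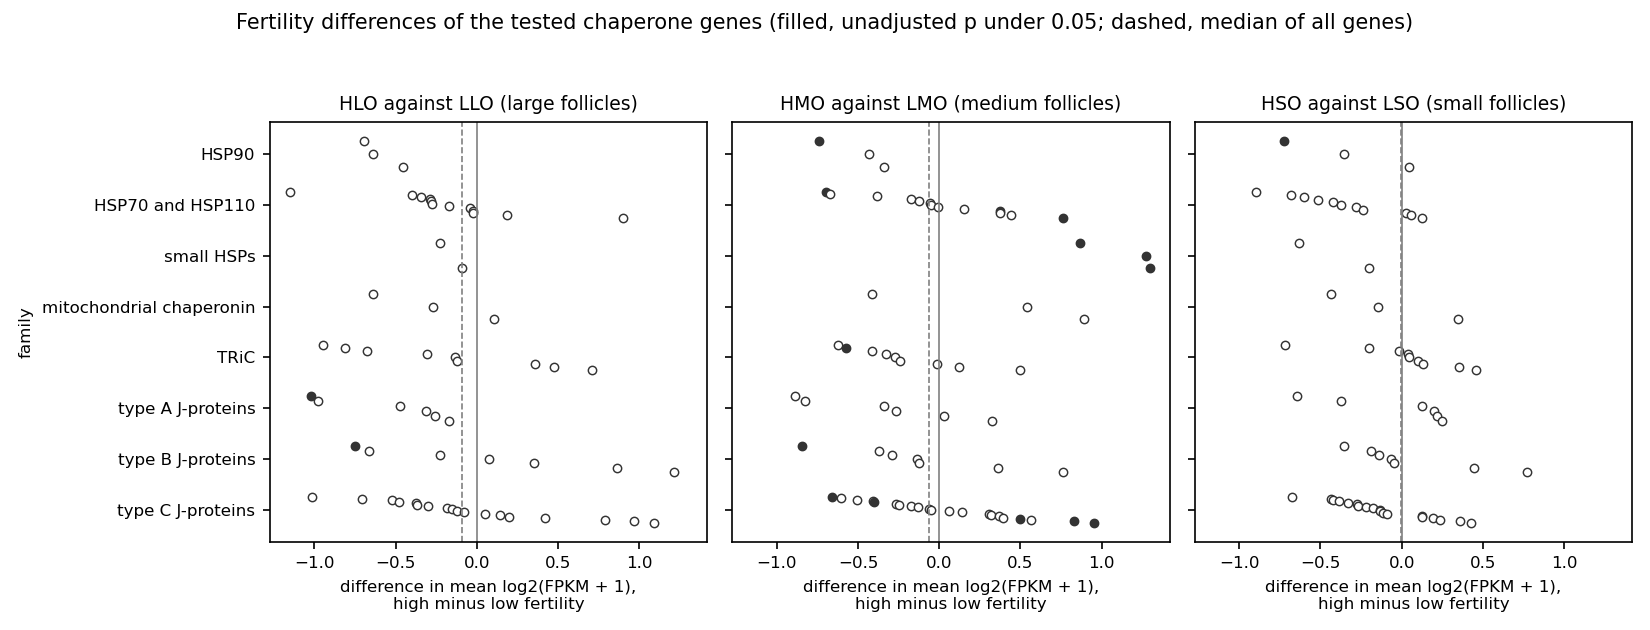
Difference in mean log2(FPKM + 1), high minus low fertility, for each member tested in large, medium and small follicles, by family, with filled points for an unadjusted p under 0.05 and a dashed line at the median of all genes. The filled points number 2, 14 and 1 in the 3 panels, and the member medians are -0.23, -0.12 and -0.14.

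In small follicles HSP90AA1 was the single member at the unadjusted threshold. Its values in HSO and LSO, given above, did not overlap. The granulosa marker sums did not overlap either, at 0.554 to 1.005 FPKM in HSO and 1.096 to 6.12 FPKM in LSO. The part of granulosa cells in the difference was not tested. In limma's test 0 of 60 members passed the adjusted threshold, against 0.0119% of the 8376 genes, 1 gene. At an unadjusted p under 0.05, 0 members were higher, against 2.04% of all genes, and 1 was lower, against 2.36%. The groups did not overlap for 1 member, 1.67% against 2.05% of all genes. HSP90AA1 differed by -0.73 (SE 0.32, adjusted p = 0.88) on the log2 scale, beside -0.45 (SE 0.47, adjusted p = 0.845) in large follicles. The median log2 difference of the 60 members was -0.14, with 23 above 0 and 37 below, beside -0.01 for all genes. The count was 0 without HSO-1 or HSO-4, beside 1.88% and 3.13% of all genes, and 2 without HSO-5, 3.39% beside 2.8%. It was 4 without LSO-2, 6.67% beside 6.66% of all genes, and 0 with median-of-ratios scaling, beside 5.34%.

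Over all stages the high and low fertility samples were compared with follicle size as a covariate. This comparison, and those of stage that follow, reuse the samples of the pair comparisons and give no separate evidence. HSP90AA1 and HSP90AB1 were on the lower side in high fertility. By limma 0 of 72 members passed the adjusted threshold, against 0.0103% of the 9692 genes, 1 gene. At an unadjusted p under 0.05, 3 members were higher, against 3.39% of all genes, and 5 were lower, against 6.59%, so both shares were near those of all genes. The median log2 difference was -0.12 with 20 members above 0 and 52 below, beside -0.04 for all genes. Median-of-ratios scaling gave 3 higher and 3 lower, beside 597 and 410 of all genes, and array weights gave 6 of 72 members past the adjusted threshold beside 691 of the 9692 genes. Without LMO-2 the 8 members became 5, 6.94% beside 7.48% of all genes.

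The lowest, median and highest levels of HSP90AA1 were 46.6, 57.9 and 80.5 FPKM in the 14 high fertility samples and 46.2, 91.6 and 165 FPKM in the 15 low fertility samples. The ranges overlapped, but the low fertility median lay above the highest high fertility sample, and the log2 difference was -0.64 (SE 0.18, adjusted p = 0.423). HSP90AB1 had 30.4, 41.3 and 58.6 FPKM in high and 34.3, 62.5 and 111 FPKM in low fertility. Its low fertility median also lay above the highest high fertility sample, with a difference of -0.50 (SE 0.21, adjusted p = 0.446). For HSPD1 the corresponding levels were 4.99, 6.497 and 8.74 FPKM and 4.58, 8.12 and 17.1 FPKM, with overlapping ranges. The difference of HSPD1 was -0.37 (SE 0.17, adjusted p = 0.476). The DNAJA2 gene ENSCHIG00000023464 had 8.84, 11.4 and 15.6 FPKM in high and 10.5, 15.1 and 24.9 FPKM in low fertility. Overlap was wide for DNAJA2, which differed by -0.40 (SE 0.16, adjusted p = 0.436).

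DNAJC13, which sorts membrane proteins on endosomes, had a lowest, median and highest level of 0.211, 0.541 and 0.942 FPKM in high and 0.331, 0.792 and 1.64 FPKM in low fertility. The ranges overlapped and the difference was -0.25 (SE 0.11, adjusted p = 0.469). On the higher side, DNAJB9 had 4.999, 14.5 and 22.7 FPKM in high and 0.0841, 8.25 and 18.7 FPKM in low fertility. Low fertility held both LLO-2 near 0 and samples within the high fertility range, and DNAJB9 differed by 0.82 (SE 0.35, adjusted p = 0.468). DNAJC24, an enzyme cofactor in diphthamide synthesis, had 13.2, 22.99 and 37.7 FPKM in high and 4.86, 19.6 and 35.4 FPKM in low fertility. Its ranges overlapped, with a difference of 0.51 (SE 0.23, adjusted p = 0.476). DNAJC12 had 0.0185, 0.292 and 1.27 FPKM and 0, 0.0891 and 0.864 FPKM, also overlapping, and differed by 0.23 (SE 0.10, adjusted p = 0.476). It exceeded 0.5 FPKM in HMO-1, HMO-4, HMO-5 and HSO-1 but among low fertility samples only in LLO-5 and LMO-1. DNAJC12 thus passed the limit mostly through high fertility, and its p-value is no support for a difference.

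Large, medium and small follicles were compared with limma's moderated F-test with fertility as a covariate. In that test 0 of 72 members passed the adjusted threshold, as did 0% of the 9692 genes, and 1 member had an unadjusted p under 0.05, against 1.66% of all genes. That member was HSPA5, the HSP70 of the endoplasmic reticulum. HSPA5 was at 8.61, 24.7, 6.06, 11.02 and 3.93 FPKM in HLO-1 to HLO-5 and at 4.34, 1.65, 4.403, 15.3 and 2.67 FPKM in LLO-1 to LLO-5. In medium follicles it was at 10.8, 13.3, 11.4, 6.22 and 8.25 FPKM in HMO-1 to HMO-5 and at 13.1, 21.6, 9.16, 18.6 and 21.9 FPKM in LMO-1 to LMO-5. Small follicles held 9.69, 8.38, 17.3 and 26.98 FPKM in HSO-1, HSO-3, HSO-4 and HSO-5 and 54.7, 17.4, 12.7, 20.1 and 20.01 FPKM in LSO-1 to LSO-5. The 3 sizes overlapped, with LSO-1 the highest sample and LLO-2 the lowest.

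The log2 difference of HSPA5 was -0.88 (SE 0.36) between large and medium follicles, -1.36 (SE 0.37) between large and small and -0.48 (SE 0.37) between medium and small, with adjusted p = 1 for the 3 sizes together. The median log2 differences of the 72 members were -0.02, -0.08 and -0.09 in these 3 contrasts, beside -0.02, -0.08 and -0.06 for all genes. The count of 1 member was 2 without HLO-1, HLO-3, HMO-2, HMO-5, HSO-3, LLO-3, LLO-5 or LMO-3, beside 0.964% to 2.41% of all genes. It was 3 without LMO-2, 4.17% beside 2.08% of all genes, and 8 without LLO-4, 11.1% beside 5.10%.

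Whether the fertility difference itself differed between follicle sizes was tested by the interaction in a fit of the 6 group means without a block. By limma 0 of 72 members passed the adjusted threshold, as did 0% of the 9692 genes. At an unadjusted p under 0.05 there were 10 members, 13.9% against 7.89% of all genes. They include HSPB3 and DNAJB5, for which no LMO or HSO sample exceeded 0.5 FPKM, so the count is no support for a difference. The smallest p belonged to HSPB3, with adjusted p = 0.24. HSPB3 was at 0, 0, 0.591, 0 and 0 FPKM in HLO-1 to HLO-5 and at 0, 0, 0, 1.66 and 0 FPKM in LLO-1 to LLO-5, with 8 of these 10 samples at 0. It was at 0.180, 0, 0.217 and 0.187 FPKM in HSO-1, HSO-3, HSO-4 and HSO-5 and at 1.14, 0.233, 2.69, 1.03 and 0.388 FPKM in LSO-1 to LSO-5. In small follicles every LSO sample lay above every HSO sample, the opposite order to medium follicles, and too few of these samples passed the limit for a test of the pair. The granulosa marker sums also lay higher in every LSO sample than in every HSO sample. Without HMO-2 the adjusted p of the interaction was 0.0151, in a range from 0.0151 to 0.482 with 1 sample left out at a time. No LMO or HSO sample exceeded 0.5 FPKM for HSPB3. It passed the limit mostly through HMO and LSO, where it was high, so these p-values are no support for a difference.

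HSPB1 and HSPB11 were also among the 10, with adjusted p = 0.568 and adjusted p = 0.512. The log2 differences of HSPB1 were -0.09 in large, 1.30 in medium and -0.63 in small follicles. Those of HSPB11 were -0.23, 0.87 and -0.20. For DNAJB1 the 3 differences were 0.86, -0.84 and -0.14 (adjusted p = 0.449). DNAJC6 had 0.97, -0.66 and -0.33 (adjusted p = 0.359). DNAJB14 gave -0.75, 0.36 and -0.07 (adjusted p = 0.592). CCT6A gave 0.48, -0.57 and 0.46 (adjusted p = 0.616), and HSPA5 0.90, -0.67 and -0.60 (adjusted p = 0.604).

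DNAJB6, which keeps proteins from aggregating, had differences of 0.35, -0.29 and -0.19 in large, medium and small follicles (adjusted p = 0.618). DNAJB5, a J-domain protein of the same type, was at 1.03, 0.106, 0.353, 0.839 and 0.366 FPKM in HMO-1 to HMO-5 and at 0.0430, 0.189, 0.0251, 0.0649 and 0.0644 FPKM in LMO-1 to LMO-5. HMO samples were mostly above LMO samples, with HMO-2 below LMO-2, whereas in small follicles DNAJB5 stood at 0.0627, 0.0601, 0.0360 and 0.0405 FPKM in HSO-1, HSO-3, HSO-4 and HSO-5 and at 0.633, 0.224, 0.445, 0.625 and 0.118 FPKM in LSO-1 to LSO-5. There every LSO sample lay above every HSO sample, an order shared by the granulosa marker sums, and the interaction of DNAJB5 had adjusted p = 0.358. No LMO or HSO sample exceeded 0.5 FPKM for DNAJB5, so its p-value is no support for a difference. The 10 members became 5 without LMO-2, 6.94% beside 6.75% of all genes, and 6 without LMO-4, 8.33% beside 7.12%. The share of members was then near that of all genes. The count rose to 14 without HMO-2, 19.4% beside 9.88% of all genes, and to 13 without LLO-4, 18.1% beside 11.6%. Array weights gave 2 members past the adjusted threshold, HSPB3 and DNAJB5, among 231 genes. A member past the unadjusted threshold at 1 follicle size and not at another is not shown to differ between sizes.

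Partners of the chaperones were taken from a list of 69 symbols covering heat shock factors, HSP90 and HSP70 cofactors, folding enzymes of the endoplasmic reticulum, prefoldin, phosducin-like proteins, tubulin cofactors and regulators of the unfolded protein response. The table held 68 of the symbols as 84 genes, of which 58 passed the 0.5 FPKM limit, and their sum ran from 2683 to 5969 FPKM with a median of 4915 FPKM. PFDN2, PFDN5, XBP1 and BAG4 shared their symbol with another gene, and the more abundant gene is given. Prefoldin, which hands actin and tubulin to TRiC, was the most abundant machine of the list. Its subunit PFDN1 had a mean of 2015 FPKM, VBP1 353, PFDN2 272, PFDN5 148 and PFDN6 119 FPKM. The tubulin cofactor TBCA had 643 FPKM, and TXNDC9 and PDCL3, phosducin-like partners of TRiC, had 316 and 76.3 FPKM. SUGT1, a cofactor of HSP90, had 97.9 FPKM, and DDIT3, a transcription factor of the stress response, 165 FPKM. The heat shock factors were low, with means of 0.0823 FPKM for HSF1, 0.0604 for HSF2, 0.688 for HSF4 and 1.53 for HSF5.

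No partner passed the adjusted threshold in any of the 6 comparisons by limma, among 50 to 58 tested. At an unadjusted p under 0.05, 2 of 52 were higher and 0 lower in large follicles, against 2.98% and 1.16% of all genes, 1 of 50 was higher and 0 lower in medium follicles, against 5.09% and 3.58%, and 0 of 51 differed in small follicles, against 2.04% and 2.36%. Over all stages 0 of 58 were higher and 2 lower, against 3.39% and 6.59%, 0 differed by stage, against 1.66%, and 4 had an interaction, against 7.89%. SDF2L1, a partner of HSPA5, was at 1.297, 4.19, 3.59, 5.83 and 1.72 FPKM in HLO-1 to HLO-5 and at 1.56, 1.02, 0.578, 1.16 and 1.13 FPKM in LLO-1 to LLO-5. LLO-1 lay above HLO-1 and the other LLO samples below all HLO samples, with a log2 difference of 0.95 (SE 0.35, adjusted p = 0.828). XBP1, a transcription factor of the unfolded protein response, was at 8.09, 4.82, 5.11, 5.45 and 4.61 FPKM in HLO-1 to HLO-5 and at 3.38, 0.868, 4.13, 5.47 and 0.491 FPKM in LLO-1 to LLO-5. LLO-2 and LLO-5 were the lowest and LLO-4 lay within the HLO range, with a difference of 0.97 (SE 0.45, adjusted p = 0.828).

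ATF6, a sensor of unfolded protein in the endoplasmic reticulum, was at 8.37, 0.680, 2.81, 6.12 and 5.81 FPKM in HMO-1 to HMO-5 and at 1.33, 0.203, 0.509, 0.842 and 1.09 FPKM in LMO-1 to LMO-5. HMO-2 lay among the LMO samples and the other 4 HMO samples above all of them, with a log2 difference of 1.5 (SE 0.42, adjusted p = 0.229). Over all stages BAG4, a cofactor of HSP70, had a lowest, median and highest level of 0.0882, 0.214 and 0.812 FPKM in high and 0.189, 0.517 and 1.88 FPKM in low fertility. CANX, a lectin chaperone of the endoplasmic reticulum, had 1.53, 2.51 and 5.47 FPKM in high and 1.83, 4.88 and 11.4 FPKM in low fertility. Both overlapped, with log2 differences of -0.30 (SE 0.11, adjusted p = 0.436) for BAG4 and -0.54 (SE 0.21, adjusted p = 0.436) for CANX. Among high fertility samples BAG4 exceeded 0.5 FPKM only in HLO-1, HLO-5 and HSO-3. It passed the limit mostly through low fertility, so its p-value is no support for a difference. The interaction had adjusted p = 0.359 for ATF6, adjusted p = 0.408 for XBP1 and adjusted p = 0.555 for ATF4, another factor of the stress response.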

How the data were processed

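FPKM values for 29 oocyte samples were used as deposited. The authors computed them with Cufflinks from uniquely matched reads after removal of duplicates, with Ensembl genes, and the aligner and genome build are not given in the sources used here. Another 1 column of values, headed as HSO-2, a sample of small follicles and high fertility that the labels do not list, was not used. Members were found by symbol, and 79 of the 80 symbols were in RefSeq (ARS1.2), which was used for names only. Members and lists were chosen with earlier results of these data known.

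Genes that exceeded 0.5 FPKM in 4 or more of the compared samples were tested on log2(FPKM + 1) with limma 3.58.1 in R 4.3.3 (moderated test with trend, p-values Benjamini-Hochberg adjusted over all genes tested). The pair comparisons used their own samples, and the others all 29. Family sums got no test. Named genes were the 3 highest by mean in each family, or all in families of 5 or fewer, every member with an unadjusted p under 0.05 up to 10 per direction, the 5 with the largest and the 5 with the smallest SD among members above 1 FPKM, and from the list of partners the 3 smallest p under 0.05 per comparison and the 10 highest by mean. The heat shock factors, HSPA2, HSPA9, TCP1, CCT4, CCT6B and the marker genes were named beside these after their values were seen. Alternatives were a pseudocount of 0.1, no filter, a stricter filter at 1 FPKM, scaling by median-of-ratios factors, a replicate block, 1 fit of 6 group means and leaving out each sample, and 2 added after seeing the data, array weights and the number of genes detected as a covariate. Fits were tested on simulated data. Python 3.11.15, numpy 2.4.6, pandas 2.3.3 and matplotlib 3.10.9 were used for tables and plots.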

Additional observations from a re-analysis of the deposited data

Results flagged for a closer look

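Samples far from the rest of their group were screened for in the sums of the 8 families and of all members in each of the 6 groups, and in members with an unadjusted p under 0.05 in a pair comparison in the 2 groups compared, 88 groups of values in all; other named genes were not screened. A sample was listed where its gap to the nearest other sample took most of the range of its group (Dixon's criterion), which chance meets in about 1 in 20 groups, and 6 were. DNAJB1 was at 41.8 FPKM in HMO-2, with 15.0 to 22.5 FPKM in the other HMO samples, and at 75.2 FPKM in LMO-2, with 25.1 to 38.0 FPKM in the others. DNAJC28 was at 1.46 FPKM in LMO-2 against 0.495 to 0.702 FPKM. DNAJC19 was at 204 FPKM in LMO-3 against 84.1 to 118 FPKM. HSPA6 was at 0.503 FPKM in LMO-4 against 0.0300 to 0.119 FPKM. DNAJC12 was at 0.549 FPKM in LMO-1 against 0.0202 to 0.171 FPKM. The causes were not tested. No interaction of fertility and follicle size passed the adjusted threshold for a member in the fit without a replicate block.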

How the results depend on the processing

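Among genes with an unadjusted p under 0.05 no difference reversed under any alternative in which the gene was tested, other members were not followed singly, and the member median in medium follicles changed sign, to 0.04 without HMO-3 and 0.02 without LMO-4. Of the values for the genes followed, 250 of 262 under other settings kept their side of the adjusted threshold. With 1 sample left out 706 of 708 did, and the other 12 and 2 passed it. Values of stage and of the interaction come from F-tests, which have no direction and could not reverse. The genes were picked by p in the same samples, so this gives no separate support. Members with an unadjusted p under 0.05 numbered, in large follicles, 1 with a limit of 1 FPKM (4.01% of all genes), 5 with median-of-ratios factors (5.95%), 6 with 1 fit of 6 group means (10.6%), 13 with array weights (16.5%) and 6 with the number of genes detected as a covariate (9.33%). In medium follicles they numbered 36 with array weights, 8 higher and 28 lower (39.8% of all genes), and 22 with the covariate (15.5%). In small follicles they numbered 3 with no filter (4.63% of all genes), 0 with median-of-ratios factors (5.34%), and 2 each with 1 fit (4.96%), array weights (8.11%) and the covariate (10.5%). Over all stages there were 32 with array weights (33.8% of all genes) and 13 with the covariate (15.5%), by stage 2 with a pseudocount of 0.1 (2.18%), 2 with no filter (2.12%) and 8 with array weights (8.43%), and for the interaction 16 with array weights (16.7%) and 20 with the covariate (17.1%). Members past the adjusted threshold were 13 in medium follicles, 6 over all stages and 2 for the interaction with array weights. All genes past it were, in large follicles, 2 with array weights, in medium follicles 0 with no filter, 13 with median-of-ratios factors, 3 with 1 fit, 1011 with array weights and 23 with the covariate, in small follicles 2 with a pseudocount of 0.1 and 0 with 1 fit, over all stages 0 with no filter, 0 with median-of-ratios factors and 691 with array weights, and for the interaction 2 with median-of-ratios factors, 231 with array weights and 52 with the covariate. Array weights and the covariate were chosen after seeing the data, and the cause was not tested.

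With 1 sample left out at a time, members with an unadjusted p under 0.05 ranged from 0 to 6 in large, 5 to 19 in medium and 0 to 4 in small follicles, 5 to 11 over all stages, 1 to 8 by stage and 5 to 14 for the interaction. In the same fits the share of all genes ranged from 1.88% to 10.6%, 4.82% to 12.6%, 1.88% to 7.95%, 7.48% to 13.8%, 0.880% to 5.10% and 6.15% to 11.6%, in that order. Members past the adjusted threshold ranged from 0 to 1 in medium follicles and for the interaction, and stayed at 0 in the other 4 comparisons. All genes past it ranged from 0 to 1 in large, 0 to 160 in medium and 0 to 2 in small follicles, 0 to 2 over all stages and 0 to 59 for the interaction. Member medians ranged from -0.39 to -0.12 in large, -0.28 to 0.04 in medium and -0.27 to -0.05 in small follicles, and from -0.18 to -0.08 over all stages.

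Under the replicate block, with the sample number as a block, members with an unadjusted p under 0.05 numbered 3 in large follicles (8.21% of all genes), 20 in medium (12 higher and 8 lower, 16.4%), 4 in small (9.41%), 11 over all stages (15.1%), 2 by stage (2.86%) and 19 for the interaction (14.5%), and 1 member, HSPB3, passed the adjusted threshold for the interaction. All genes past it numbered 1 in large, 127 in medium and 0 in small follicles and 70 for the interaction. Same-numbered samples of different groups had deviations from their group means that were positively related over 0.1 in 55 of 70 pairs, from -0.57 to 0.74, and 20 of 29 samples were most related to samples of their own number. The number was to be read as pairing only where all pairs of the compared groups were over 0.1, which held for HLO with HMO, HLO with HSO and HMO with HSO and for no high with low fertility groups. The table used here holds no read counts, and what depth limits was not worked out.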

Other observations

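Samples carry numbers 1 to 5 in their titles, and differences between the numbers were noticed after seeing the data. The median sum of TRiC was 564 FPKM in samples numbered 1, 287 in those numbered 2, 241 in those numbered 3, 528 in those numbered 4 and 792 in those numbered 5. Number 4 was split by fertility, with 219 FPKM in HLO-4, 249 in HMO-4 and 371 in HSO-4 against 733 in LLO-4, 686 in LMO-4 and 778 in LSO-4. Other families did not all share this order: the median sum of the mitochondrial chaperonin was 1769, 1611, 1997, 1883 and 1538 FPKM for numbers 1 to 5, and that of small heat shock proteins 44.1, 49.2, 41.4, 42.5 and 42.0 FPKM. The median number of genes above 0.5 FPKM was 8268.5, 7421, 7239, 8149 and 8279 in the same order. What the number stands for is not given in the labels, and its part in the member levels was not tested.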
